A study of Mus musculus with 4 samples.

Results

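The regions described here were the distal intergenic H3K27ac peaks whose nearest gene was protein-coding, in mouse embryonic stem cells (mESCs) grown with or without folate. They were chosen from the deposited peak table by annotation alone, as every peak classed as distal intergenic, nearest a protein-coding gene, and not on chromosomes 1 and 8. This gave 341 of the 4088 listed peaks, and 341 of the 1160 distal intergenic peaks of every gene type and chromosome. Cells of the Sv129 mESC line were grown without folate (0 mg/L, FA0) or with folate (4 mg/L, FA4), and the labels name no other treatment or allele. The cells of both conditions belong to 1 line, and the study's methods describe culture medium with fetal bovine serum and LIF. Each condition gave 1 H3K27ac immunoprecipitated (IP) library and 1 input library, so there were 4 libraries and no replicates.

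H3K27ac is an acetylation of histone H3 that is laid down by the coactivators p300 and CBP and is removed by histone deacetylases. It marks promoters and enhancers in use, and at an enhancer far from any gene it distinguishes an active element from a poised one. Enhancers often lie many kilobases from the gene they act on, and the nearest start site need not be the one they serve, so the gene names below are addresses and not targets.

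A peak was listed where H3K27ac of the FA4 IP was above that of the FA0 IP, which served as the control of the peak call. That order was inferred, because the table does not name the control. The study calls the same promoter peaks FA4 against FA0, while its text describes a slight gain of H3K27ac in FA0 cells, and if the order were the other way round every difference below would be too. Since the listing itself requires FA4 to exceed FA0, the direction of a peak is not a result, and no region with more H3K27ac in FA0 could be analysed here. Each peak has 2 values in fragments. The FA4 pileup is the number of fragments stacked at the summit, and the local FA0 background is the largest of the peak caller's local estimates from the FA0 library, not the FA0 pileup at the summit. Fold enrichment runs FA4 over FA0, as pileup plus 1 over background plus 1. Pileups have exact Poisson intervals and shares exact Clopper-Pearson intervals, all at the 95% level and for counting error only. There was no replicate to check a difference against, and peaks are not replicates of a condition, so no p-value is given. Among listed promoter peaks were those of 9 of 19 mESC markers, Nanog, Pou5f1 and Sox2 among them, against 0 of 12 feeder fibroblast, 0 of 7 primitive endoderm, 1 of 8 trophoblast (Tfap2c) and 1 of 6 neural markers (Tubb3). These promoter counts take in every chromosome. Of RefSeq protein-coding genes off chromosomes 1 and 8, 4.57% had a listed promoter peak. The 341 distal peaks included some nearest 1 of the 19 mESC markers and 3 of the 8 trophoblast markers. Of the same RefSeq genes, 1.54% were nearest a distal peak. A mark that is equal in FA0 and FA4 gives no listed peak, so these counts cannot show that a cell type was absent.

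The gene with the most distal peaks was Jarid2, which encodes an accessory subunit of the polycomb repressive complex PRC2. Its start region is printed because 292 of its 300 bases lay under a listed promoter peak, downstream of 7 distal peaks. The window runs from 250 bases before to 50 bases after the RefSeq start site, at chr13:44731021-44731320 on the plus strand (GRCm38.p6, the assembly of mm10). Capitals mark a GC box, searched as GGGCGG on either strand. The window held 1 such box, 23 CpG dinucleotides and 62.7% G and C. A GC box was present in 9378 of 20392 promoter windows of protein-coding genes (46.0%, chromosomes 8 and 18 left out), so its presence does not set this window apart.
Jarid2 promoter: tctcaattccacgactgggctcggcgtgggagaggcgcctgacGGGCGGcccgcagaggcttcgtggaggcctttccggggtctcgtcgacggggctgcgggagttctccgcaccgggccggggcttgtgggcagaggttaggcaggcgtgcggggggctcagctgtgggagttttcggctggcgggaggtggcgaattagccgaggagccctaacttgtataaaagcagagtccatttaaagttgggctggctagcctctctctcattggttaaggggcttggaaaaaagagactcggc

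The distal peaks lay a median of 18533 bp from the start site of the nearest gene (interval 15732 to 21633), with quartiles of 9504 and 38266 bp. Each distance runs to the start site given for that peak in the deposited annotation, which need not be the start of the whole gene. At Kdm5c, Slc25a5 and Jarid2 the distal and promoter peaks were measured from different start sites. The distance to a gene's listed promoter can therefore be longer than the one given. The distal peaks were more often upstream of the gene than downstream, with 214 peaks upstream (62.8%, 57.4 to 67.9) and 127 downstream. Peaks within an annotated gene belong to other classes, which removes sites downstream of its start site. The class definition thus favors upstream peaks, and the share is a description only. Downstream peaks were beyond the end of the gene span given in the deposited annotation by a median of 16865 bp (627 to 329612 bp). That span can fall short of the RefSeq gene, as at Txn2, where it is 654 bp. The Ercc4 peak, 6540 bp beyond the given end, was inside Ercc4 in RefSeq. These distances may therefore overstate how far peaks lay past the gene. The most remote peak lay 464050 bp upstream of the start site given for Robo1, which encodes a receptor for Slit guidance cues in growing axons. In the RefSeq annotation, however, that peak was inside Robo1 itself. Next came Adra2a, an adrenergic receptor gene (333412 bp downstream), Cdh26, a cadherin gene (272563 bp downstream), Tbc1d5, which acts in endosomal trafficking (266116 bp upstream), and Prelid2 (264974 bp downstream). These 5 remote peaks were small, with local FA0 backgrounds of 1.60 to 1.91 and FA4 pileups of 9 to 13. At the near end, where the distal class meets the promoter class at 3 kb, the closest peaks belonged to Gm765 (3094 bp), Calcoco2 (3189 bp), Bcr (3218 bp), Gusb (3381 bp) and Plk5 (3572 bp), all upstream. Their FA4 pileups ran from 9 to 25. Just outside the limit, promoter peaks lay 2988 bp from the start site of Uspl1, 2987 bp from that of Polr3a and 2966 bp from that of Mms19, with pileups of 23, 11 and 12.

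**Figure D1:**
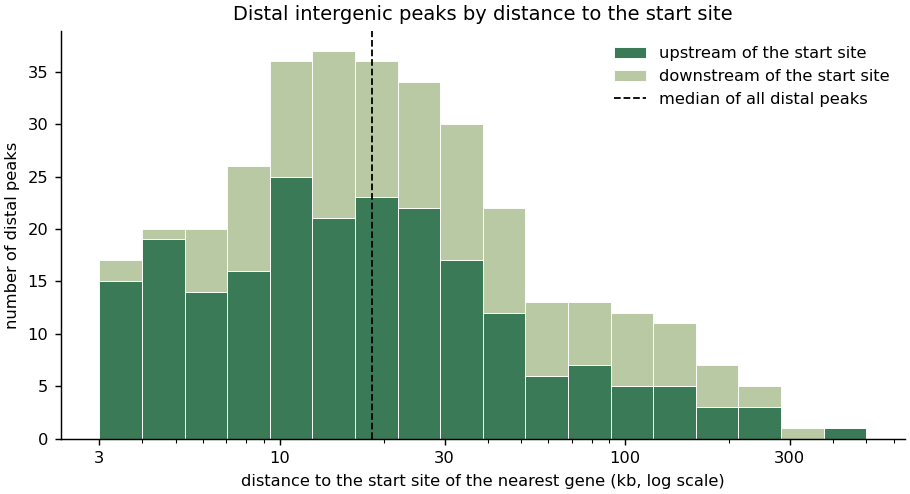
Number of distal peaks (vertical axis) by distance to the start site of the nearest gene (horizontal axis, kb, log scale), with upstream peaks in dark and downstream peaks in light green. Most peaks fall between 5 and 50 kb, around the median of 18533 bp (dashed line), and 31 lie beyond 100 kb.

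Among the peaks that could be checked, the nearest gene was mostly the same in a second annotation. Peaks of genes without a RefSeq promoter window were left out of this check. Of 254 peaks whose gene has a start site among the RefSeq promoter windows, 233 (91.7%, 87.6 to 94.8) had that gene's start site as the nearest. The class itself was less secure, since 44 of the 341 peaks (12.9%, 9.53 to 16.9) overlapped the span of a RefSeq gene. For 20 of them the gene was protein-coding, as for Robo1, Calcoco2, Capg and both Taf1 peaks, and for another 20 it was a long noncoding RNA only. The remaining 4 overlapped a pseudogene or a tRNA gene only. The peaks inside RefSeq genes had a median local FA0 background of 1.64 and a median FA4 pileup of 11, close to the 1.67 and 12 of the peaks outside them.

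Most distal peaks were weak, as were most listed peaks, whose median FA4 pileup of 12 and median fold of 3.84 were the same. The median local FA0 background was 1.67 fragments (1.60 to 43.4) and the median FA4 pileup 12 (8 to 76), with a median fold of 3.84 (quartiles 3.44 and 4.49, range 1.69 to 7.31), a median width of 317 bp (252 to 1005) and a median −log10 q of 2.37. In 198 peaks (58.1%) the pileup was 12 or less, and in 16 peaks (4.69%) it was 50 or more. The shares of all listed peaks at these limits are not given here, so the counts are descriptions only. The upper quartile of the pileup was 18 in the distal peaks and 28 over all listed peaks. At 153 peaks (44.9%, 39.5 to 50.3), against 36.5% of all listed peaks, the background was at its lowest value in the table, 1.60, the level that stands where few FA0 fragments are found nearby. At that background fold depends on the pileup alone, so that 35 peaks with 9 fragments all had a fold of 3.84 and 36 peaks with 10 fragments all had a fold of 4.23. A change of 1 fragment therefore moved a peak across a fold of 4. The number of peaks with fold of at least 4 was 151 (44.3%, 38.9 to 49.7), against 39.2% of all listed peaks, which lies inside the interval.

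A smaller group of 74 peaks (21.7%, 17.4 to 26.5) had a local FA0 background of at least 5, against 30.4% of all listed peaks. These peaks had a median background of 11.4 and a median pileup of 34, with a median fold of 2.64. Over the 341 peaks, Spearman's rho was 0.76 between background and pileup and −0.59 between background and fold. These quantities come from the same pair of libraries and fold is computed from pileup and background, so these coefficients are descriptions only. Pileup and distance from the start site were weakly related (rho −0.18), as were fold and distance (0.09). The median pileup was 13 in the 33 peaks under 5 kb and 10 in the 31 peaks beyond 100 kb, of which 21 were at the lowest background.

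**Figure D2:**
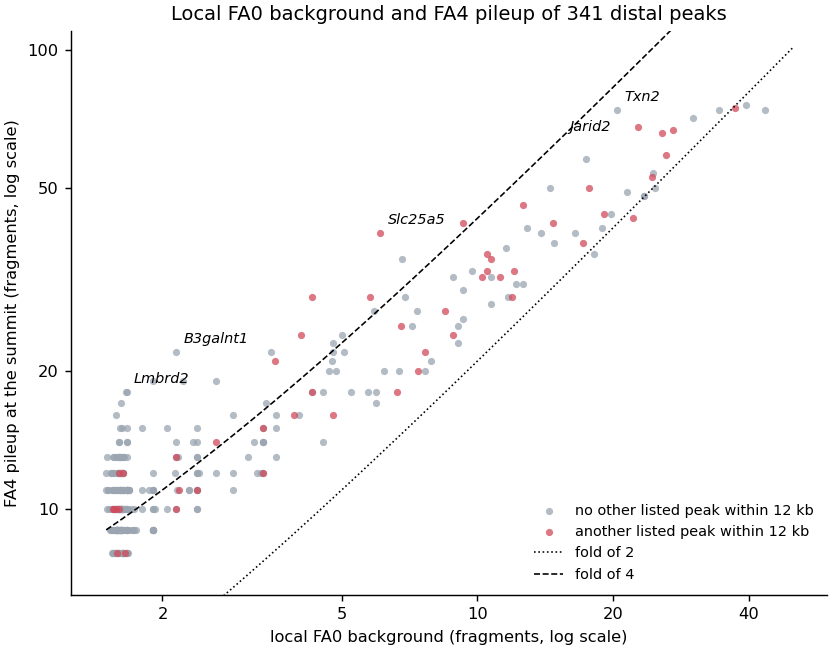
Local FA0 background (horizontal axis, fragments, log scale) and FA4 pileup at the summit (vertical axis, fragments, log scale) of the 341 distal peaks, with lines at folds of 2 and 4. Points at the lowest background of 1.60 are spread sideways so that they can be seen, red points have another listed peak within 12 kb, and peaks of high background lie nearer the line of fold 2.

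The peaks of highest −log10 q were near Slc25a5 and Txn2. Slc25a5, which encodes the ADP/ATP carrier ANT2 of the inner mitochondrial membrane, had a peak of 529 bp at chrX:36804660-36805188, 7381 bp downstream of its start site. The local FA0 background was 6.09 and the FA4 pileup 40 (28.6 to 54.5), with a fold of 5.78 and a −log10 q of 14.6. The promoter of Slc25a5 was also listed, with a background of 19 and a pileup of 45, so its fold of 2.29 was lower than that of the distal peak although its pileup was like it. Txn2, the mitochondrial thioredoxin, had a peak 26699 bp downstream of its start site with a background of 20.5, a pileup of 74 (58.1 to 92.9) and a fold of 3.50. Its −log10 q of 14.5 was almost that of Slc25a5, from a higher pileup over a higher background.

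The next peaks were near genes of varied function. B3galnt1, a glycosyltransferase that makes the glycolipid globoside, had the highest fold of all, 7.31, with a local FA0 background of 2.15 and an FA4 pileup of 22 (13.8 to 33.3) at a site 27437 bp upstream. Col18a1, the source of the collagen fragment endostatin, had 2 upstream peaks, at 8796 and 11223 bp, with backgrounds of 2.63 and 4.30 and pileups of 14 and 29. The peak of Ffar2, a receptor for short-chain fatty acids, was 665 bp wide and lay 5516 bp upstream, with a background of 9.31 and a pileup of 42. These were followed by peaks of 4930505A04Rik (background 6.80, pileup 35), of Jarid2 (22.7 and 68) and of Tlr2, a receptor for bacterial lipopeptides (17.4 and 58). The last of the 10 were Lmbrd2 (1.66 and 18) and Echdc2 (1.91 and 19), whose folds of 7.14 and 6.87 came from few fragments.

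**Figure D3:**
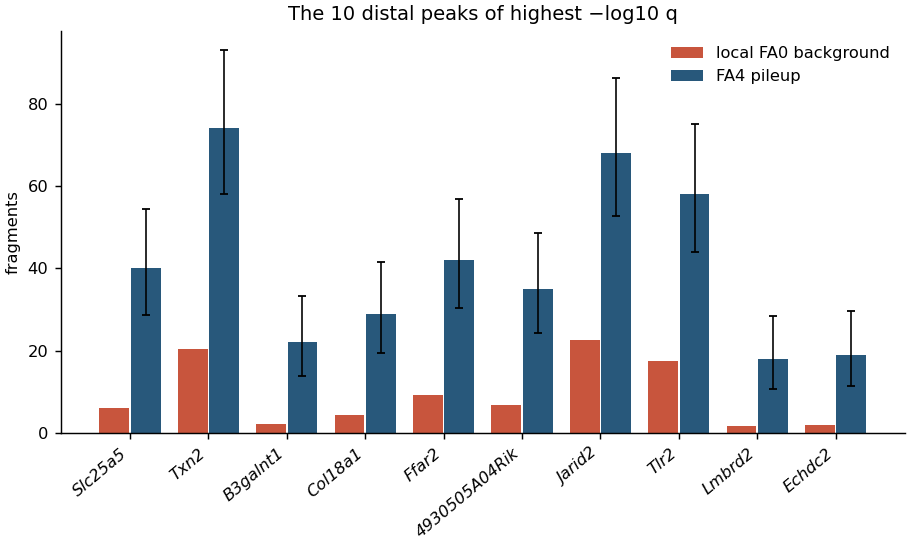
Local FA0 background (left bar of each pair) and FA4 pileup (right bar, with exact Poisson 95% interval) in fragments, for the 10 distal peaks of highest −log10 q, each named by its nearest gene. The pileups run from 18 at Lmbrd2 to 74 at Txn2. In each pair the lower bound of the pileup lies above the background. That follows from choosing peaks by −log10 q, which is computed from pileup and background.

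High fold and high pileup picked out different peaks. After B3galnt1 and Lmbrd2, the highest folds were at Prl2c2, a placental hormone of the prolactin family (7.11), Spin2f, of the spindlin family (6.92), Echdc2, and Calcoco1, an autophagy receptor (6.53). They were followed by Nwd2 (6.20), Cecr2, a bromodomain protein of a chromatin remodeling complex (6.15), Blmh, the cysteine protease bleomycin hydrolase (6.15), and Ncr1, a receptor of natural killer cells (5.99). The 10 peaks of highest fold had local FA0 backgrounds of 1.60 to 2.23 and FA4 pileups of 15 to 22. The 5 highest pileups, by contrast, had backgrounds of 20.5 to 43.4 and folds no higher than 3.50. They were Txn2, Ranbp17, a gene of the nuclear import receptor family (background 34.4, pileup 74, fold 2.12), and 3 peaks near AC149090.1 on the unplaced contig JH584304.1. The contig peaks had backgrounds of 39.5, 37.2 and 43.4 and pileups of 76, 75 and 74, and at 1.69 the last had the lowest fold of the 341 peaks. In all, 6 peaks had a fold below 2.

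The widest peaks were at Tmem64, a membrane protein (1005 bp), Abt1, an activator of basal transcription (847 bp), Btf3l4, related to the transcription factor BTF3 (771 bp), Echdc2 (671 bp) and Ffar2 (665 bp). The Tmem64 peak lay 20781 bp upstream, with a local FA0 background of 12.7 and an FA4 pileup of 46, and a second peak 31373 bp upstream had 10.5 and 36. The Abt1 peak overlapped a tRNA gene of RefSeq, and had a background of 10.5 and a pileup of 33. The Btf3l4 peak, though among the widest, had a background of 1.60 and a pileup of 12.

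Most distal peaks had no other listed peak nearby. Peaks within 12 kb of each other were joined into runs, and 49 distal peaks (14.4%, 10.8 to 18.5) were in a run, against 18.3% of all listed peaks, which lies inside the interval. The peaks in runs had a median local FA0 background of 6.77, a median FA4 pileup of 25 and a median width of 376 bp, while the 292 isolated peaks had 1.61, 11 and 314 bp. The median fold was 3.22 in runs and 3.84 outside them. The runs numbered 30, and 14 of them held at least 2 distal peaks, 33 in all. Of the 14, 8 were shorter than 3 kb, such as those at Taf1, the largest subunit of the general transcription factor TFIID (982 bp), Psmg1, a proteasome assembly chaperone (1380 bp), and Dyrk1a, a protein kinase (1574 bp). The Taf1 pair had backgrounds of 8.83 and 8.48 with pileups of 24 and 27, and the Psmg1 pair 12 and 11.2 with 33 and 32. Of the distal peaks in runs, 20 shared theirs with a promoter peak.

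The Jarid2 locus held the longest of these 14 runs, 8 peaks within 29308 bp, of which 6 were distal. From the most remote to the nearest, the distal peaks lay 50254, 25028, 24291, 22455, 18452, 11665 and 6363 bp upstream of their given start site. The first of them lay apart from the run. That start site is not the RefSeq one of the printed window, and the promoter peaks were measured from others. From the most remote distal peak to the nearest, the local FA0 backgrounds were 24.6, 26.3, 27.2, 22.7, 22.2, 17.2 and 19.13. The FA4 pileups were 54, 59, 67, 68, 43, 38 and 44. Backgrounds and pileups were both high across the 7 sites, and folds stayed between 1.90 and 2.91, below the distal median of 3.84. The peak at 22455 bp, chr13:44706705-44707019, had the highest fold and −log10 q of the 7 (2.91 and 9.46), and the one at 18452 bp the lowest (1.90 and 1.48). The pileup intervals of those peaks were 52.8 to 86.2 and 31.1 to 57.9, and they overlapped. The promoter peak over the printed window had a background of 26.1, a pileup of 78 and a fold of 2.91. A second promoter peak had values of 26.0, 63 and 2.37. The fold of the strongest distal peak thus equaled that of the promoter to the second decimal.

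A second gene of PRC2, Suz12, had a run of its own. Suz12 is a core subunit needed for the methylation of H3K27, the same lysine that acetylation occupies in active chromatin. Its distal peaks lay 12546 and 11509 bp upstream, with local FA0 backgrounds of 14.7 and 11.9, FA4 pileups of 42 and 29, and folds of 2.73 and 2.32. Another peak in the run was assigned to its neighbor Utp6, a ribosome biogenesis gene, at 14065 bp (17.7, 50 and 2.73). At the Suz12 promoter the background was 23.6, the pileup 66 and the fold 2.72. These 4 peaks spanned 17613 bp, and apart from Jarid2 this was the only run of at least 2 distal peaks that also held a promoter peak.

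**Figure D4:**
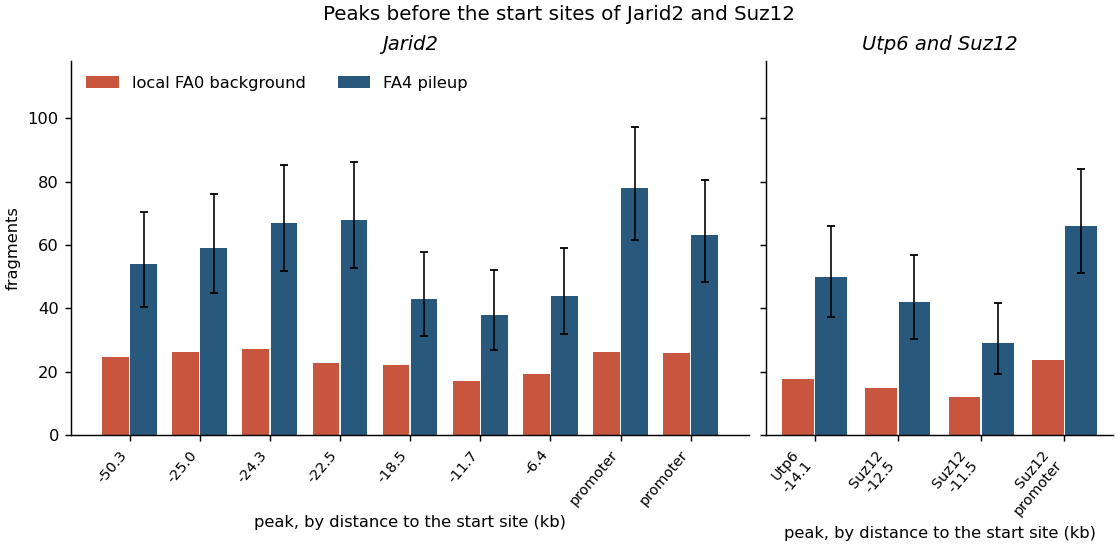
Local FA0 background (left bar of each pair) and FA4 pileup (right bar, with exact Poisson 95% interval) in fragments, for each listed peak of Jarid2 and of the Utp6 and Suz12 run, ordered along the locus and labelled by distance in kb to the start site of the gene the table assigns. At Jarid2 the distal pileups run from 38 to 68 over backgrounds of 17.2 to 27.2, and the main promoter peak reaches 78.

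Most genes had a single distal peak. The 341 peaks were assigned to 309 genes, of which 284 had 1 peak, 22 had 2, Pced1b and AC149090.1 had 3 each, and Jarid2 had 7. The Pced1b peaks lay 50809, 62747 and 86222 bp downstream and were all small, with local FA0 backgrounds of 1.60, 3.34 and 2.39 and FA4 pileups of 8, 12 and 14. Other genes with a pair were Kdm5c, a demethylase of H3K4 (backgrounds 2.15 and 4.30, pileups 10 and 18), Meox1, a homeobox gene of the somites (1.60 at both, pileups 10 and 12), and Hunk, a protein kinase (1.60 and 10 at both).

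A listed promoter peak at the same gene was uncommon but more frequent than among genes at large. Of the 309 genes, 27 (8.74%, 5.84 to 12.5) had one, against 4.57% of RefSeq protein-coding genes off chromosomes 1 and 8. Genes with an intron peak had one in 50 of 499 cases (10.0%, 7.53 to 13.0), so the share was not particular to distal peaks. The 27 genes included Jarid2, Suz12, Kdm5c, Slc25a5, Rbpj, the DNA-binding effector of Notch signaling, Hspa9, a mitochondrial chaperone, Eif4a2, an RNA helicase of translation initiation, and Tfap2c, a transcription factor of trophoblast and germ cells. At Hspa9 the distal peak, 69064 bp upstream, had a local FA0 background of 18.2 and an FA4 pileup of 36, while the promoter had 30.1 and 150. At Rbpj the values were 10.7 and 32 at the distal peak, 23842 bp downstream, and 30.3 and 75 at the promoter. At Lratd1 and Otud3, by contrast, the promoter peak itself was small (background 1.60 and pileup 12 at each).

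Genes were then grouped by 16 lists of pathways and cell types. A distal peak was assigned to 302 of 19650 RefSeq protein-coding genes (1.54%), and the lists were read against that share. Chromatin modifiers and remodelers had 4 of 45 genes (8.89%, 2.48 to 21.2): Jarid2, Suz12, Ring1, the ubiquitin ligase of polycomb complex PRC1, and Kat2b, an acetyltransferase. Kat2b had the strongest single peak of these outside Jarid2, 5295 bp upstream, with a local FA0 background of 14.5, an FA4 pileup of 50 (37.1 to 65.9) and a fold of 3.29. The Ring1 peak was small (background 1.60, pileup 11, fold 4.61). The median fold over the 11 peaks of the list was 2.32, against 3.84 over all listed peaks, and 9 of these peaks belong to Jarid2 and Suz12.

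Genes needed for closure of the neural tube had a distal peak in 5 of 43 cases (11.6%, 3.89 to 25.1), namely Jarid2, Sall4, Cecr2, Epha7 and Gldc, with 7 of the 12 peaks at Jarid2. Cecr2, whose loss causes exencephaly in mice, had a local FA0 background of 1.60, an FA4 pileup of 15 (8.40 to 24.7) and a fold of 6.15 at a site 10770 bp upstream. Epha7, an ephrin receptor, had a background of 1.60, 12 fragments in FA4 and a fold of 5.00 at 41080 bp upstream. Sall4, a zinc finger factor of the pluripotency network, had 2 upstream peaks that differed in background and pileup. The one at 18564 bp had a background of 9.73, a pileup of 33 and, in fold, 3.17. The one at 41377 bp had a background of 1.68, a pileup of 11 and, in fold, 4.47. Of the 41 pluripotency genes, Jarid2 and Sall4 were the 2 with a distal peak (4.88%, 0.596 to 16.5).

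Folate and one-carbon metabolism had 3 genes of 37 (8.11%, 1.70 to 21.9), each with 1 small peak. Mat2a, which makes the methyl donor S-adenosylmethionine, had a local FA0 background of 1.60 and an FA4 pileup of 11 (5.49 to 19.7) at a site 8435 bp upstream. Psat1, an enzyme of serine synthesis, had 1.60 and 11 at 45639 bp downstream, so the fold was 4.61 at both. Gldc, the decarboxylase of the glycine cleavage system, had a background of 2.39, 10 fragments in FA4 and a fold of 3.25 at 10655 bp upstream. Among genes of DNA methylation the count was 2 of 23 (8.70%, 1.07 to 28.0). Dnmt3a, a de novo DNA methyltransferase, had a background of 1.67, 10 fragments in FA4 and a fold of 4.12 at 12346 bp upstream. Cxxc1, which binds unmethylated CpG, had a background of 1.60, also with 10 fragments, and a fold of 4.23 at 14213 bp downstream. The intervals of these 5 pileups ran from 4.80 to 19.7 fragments, and those 5 peaks could not be ranked at this depth. With a −log10 q limit of 3, 0 genes were left in the DNA methylation list. In the folate list 2 of 37 were left (5.41%, 0.661 to 18.2), and that interval includes 1.54%.

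Distal peaks of the signaling lists were small. The hedgehog list had 1 gene of 31 (3.23%, 0.0816 to 16.7), the co-receptor gene Cdon, with a local FA0 background of 1.60, an FA4 pileup of 13 (6.92 to 22.2) and a fold of 5.38 at 15140 bp upstream. Wnt signaling had 3 of 48 (6.25%, 1.31 to 17.2), the ligands Wnt5a (background 1.67, pileup 8, fold 3.37) and Wnt7a (1.67, 9 and 3.74) and the receptor Fzd1 (1.60, 9 and 3.84). TGF-beta, Nodal and BMP signaling had 2 of 36 (5.56%, 0.680 to 18.7), the signal transducer Smad2 (background 1.60, pileup 8, fold 3.46) and the inhibitor Smad7 (1.91, 9 and 3.44). The intervals of all these lists included 1.54%, and at a −log10 q of at least 3 the Wnt and TGF-beta counts were 0. No gene of the FGF and ERK list (0 of 37, upper bound 9.49%), the neural progenitor list (0 of 30, 11.6%) or the spermatid list (0 of 29, 11.9%) had a distal peak, and those bounds also lie above 1.54%.

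Markers of other lineages were at distal peaks in small numbers. Trophoblast genes had 3 of 16 (18.8%, 4.05 to 45.6), namely Gata3 (local FA0 background 7.40, FA4 pileup 20, fold 2.50), Krt18 (3.34, 14 and 3.45) and Tfap2c (2.33, 14 and 4.50). At a −log10 q of at least 3, Tfap2c was the 1 left of the 16 (6.25%, 0.158 to 30.2), and that interval includes 1.54%. The other lists had 1 to 3 genes each: Nkx2-5 of the mesoderm and endoderm list (1 of 24), Col6a2 of the feeder fibroblast list (1 of 20), Cdh9 of the cadherin list (1 of 19), and Robo1, Dcc and Epha7 of the axon guidance list (3 of 43). At that limit the mesoderm and endoderm and the feeder fibroblast counts were 0, and the axon guidance count was 1. The Cdh9 peak had a background of 1.60 and a pileup of 13, and those of Nkx2-5, Col6a2, Robo1 and Dcc had 1.60 and 9. Of the large gene families, 9 of 1078 olfactory receptor genes (0.835%, 0.382 to 1.58), 6 of 348 solute carrier genes (1.72%, 0.635 to 3.71) and 3 of 370 Zfp zinc finger genes (0.811%, 0.168 to 2.35) had a distal peak, and each interval included the 1.54% of all protein-coding genes. Reads from near-identical copies may have been assigned to 1 of them or dropped. Peaks near genes with such copies, olfactory receptors and Spin2f among them, are therefore uncertain. Which other named genes have such copies was not checked.

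The distal peaks, with their median local FA0 background of 1.67, median FA4 pileup of 12 and median fold of 3.84, were nearer to intron peaks than to promoter peaks. The later introns of protein-coding genes on the same chromosomes held 398 peaks, with medians of 1.67, 11 and 3.84, and first introns held 147, with 1.68, 12 and 3.86. The 748 promoter peaks within 1 kb had medians of 17.4, 46 and 2.80. A background of at least 5 was found at 21.7% of distal peaks (17.4 to 26.5), against 10.3% of later intron peaks (7.49 to 13.7), 18.4% of first intron peaks (12.5 to 25.6) and 78.6% of promoter peaks (75.5 to 81.5). The interval of the distal peaks thus lay above that of later introns, overlapped that of first introns and lay below that of promoters. The lowest background was found at 44.9% of these distal peaks (39.5 to 50.3), against 59.7% (55.5 to 63.9) of the 549 distal peaks nearest other gene types, and the intervals did not overlap. In a run were 14.4% (10.8 to 18.5), against 8.56% (6.36 to 11.2) nearest other gene types, intervals that overlapped. These intervals cover counting error over peaks of the same pair of libraries, and no replicate bears on the differences.

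**Figure D5:**
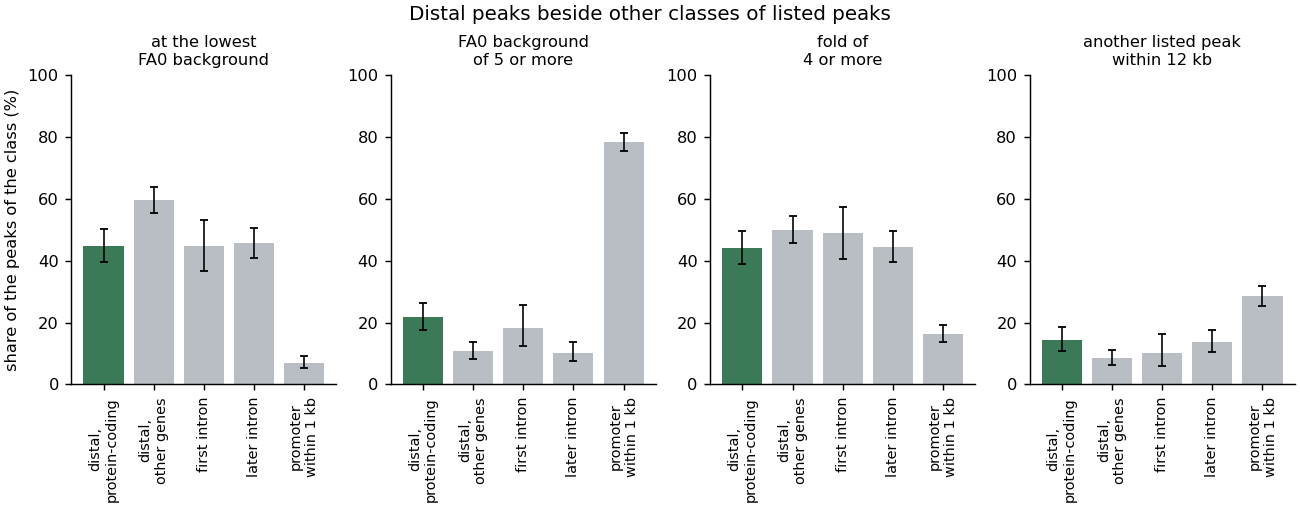
Share of peaks (%) at the lowest local FA0 background, with a background of 5 or more, with fold of 4 or more, and in a run, for the distal peaks nearest protein-coding genes (green) and 4 other classes on the same chromosomes (grey). Bars start at 0 and error bars are exact 95% binomial intervals; at a background of 5 or more the distal peaks stand at 21.7% and promoter peaks at 78.6%.

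The distal peaks were spread over every chromosome analysed, but not evenly. Chromosome 16 had 34 peaks, or 5.01 per 100 protein-coding genes (3.47 to 7.0), and chromosome 18 had 20, or 3.92 (2.40 to 6.06). Chromosome 7 had 12 peaks, or 0.591 per 100 genes (0.305 to 1.03), the lowest rate. Rates by chromosome length were not computed, and rates of all listed peaks by chromosome are not given here. Whether the unevenness is particular to distal peaks was therefore not tested. The peaks of chromosome 16 were of ordinary size, with a median local FA0 background of 1.64, a median FA4 pileup of 10 and a median fold of 3.78. Those of chromosome 13, 7 of 22 at Jarid2, had medians of 7.20, 21 and 2.99.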

How the data were processed

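Chromatin of Sv129 mESCs was digested enzymatically, immunoprecipitated with anti-H3K27ac and sequenced. Per the submitters' processing notes, bcl2fastq 2.17, Bowtie 1.1.2 (mm10) and MACS2 2.1.0 were used. Their settings, the annotation tool and the library totals are not given in the sources used here. Pileups, from 8 to 265 over all listed peaks, are thus the one measure of depth. Amplified fragments without molecular identifiers are not independent molecules, which intervals do not account for. The authors deposited for each peak the pileup as unscaled signal, the fold enrichment ratio, the −log10 of the p-value and q-value (lowest −log10 q 1.31, a q-value of 0.05), and width and distance in bp. A table of promoter peaks alone and the input libraries were not used.

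The local FA0 background was computed as pileup plus 1, divided by fold, minus 1, and a background up to 0.01 above the lowest was taken to be the lowest. Medians have 95% order-statistic intervals. By symbol or synonym, 302 of 309 genes were found in RefSeq (GRCm38.p6). Promoter sequences are from RefSeq, and 232 of 309 genes matched a window. Scripts were tested on simulated data. The peaks and the gene lists were chosen with earlier results of these data known. The genes named were the 10 peaks of highest −log10 q and of highest fold, the 5 of highest pileup, the 5 widest, farthest and closest, genes with at least 3 peaks, every listed hedgehog, DNA methylation and folate gene, and up to 4 of each other list. Genes with a promoter peak as well, those with a pair of peaks, members of runs and neighbors of the 3 kb limit were named after their values were seen. Alternatives were a −log10 q of at least 2 or 3, 1 peak per gene, at least 10 kb from the start site, every gene type, and joining distances of 5 and 25 kb. Removal of the unplaced contig and of peaks inside RefSeq genes was added after seeing the data. Intervals came from scipy 1.17.1, tables from pandas 2.3.3 with numpy 2.4.6, and plots from matplotlib 3.10.9, all under Python 3.11.15.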

Additional observations from a re-analysis of the deposited data

How the results depend on the processing

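No paired analysis was possible because each condition had 1 library. At a −log10 q of at least 2, 226 distal peaks remained, with 66.8% at a fold of at least 4, a median FA4 pileup of 13 and a median fold of 4.23. At a −log10 q of at least 3 there were 138 peaks, or 40.5% of the distal peaks (35.2 to 45.9). The share was 46.7% for all listed peaks, 69.3% for promoter peaks within 1 kb, 40.8% for first introns and 33.4% for later introns. Of the 138, 68.8% had a fold of at least 4, 5.07% lay beyond 100 kb and 20.3% were in a run. Their medians were 15 fragments, a fold of 4.61, 15554 bp to the start site and 342 bp in width. The q-value is computed from pileup and background, so a stricter limit removes low folds by construction. With 1 peak per gene 9.71% were in a run, and joining at 5 or 25 kb put 9.38% or 22.9% in one. At least 10 kb from the start site, the median distance was 27316 bp. With every gene type there were 890 peaks, 23430 bp from the start site, 56.0% upstream, 12.8% beyond 100 kb, 54.0% at the lowest FA0 background and 10.8% in a run. Without the peaks inside RefSeq genes 297 peaks were left, and without the contig 338, and the medians and shares above stayed inside their intervals. At a −log10 q of at least 3, the Wnt, TGF-beta, DNA methylation, mesoderm and endoderm, and feeder fibroblast counts fell to 0. Trophoblast and axon guidance fell to 1, neural tube closure from 5 to 4 and the folate list from 3 to 2. The other counts of the 16 lists stayed the same. The planned checks of base composition and motifs under the peaks were not run, since no genome was used here.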

Other observations

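The distal peaks of chromosomes 1 and 8, which the selection left out, were like the others in size. Chromosome 8 had 35 such peaks nearest protein-coding genes, with a median local FA0 background of 1.60, a median FA4 pileup of 12 and a median fold of 3.74, and chromosome 1 had 31 with 1.91, 12 and 3.84. Their rates were 3.36 (2.34 to 4.67) and 2.57 (1.75 to 3.65) per 100 protein-coding genes.

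A list of polycomb complex genes was added after Jarid2 and Suz12 had been seen, so it is a description only. Distal peaks were nearest 4 of its 33 genes (12.1%, 3.40 to 28.2), against 1.54% of protein-coding genes. Beyond Jarid2, Suz12 and Ring1 it held Rybp, a subunit of variant PRC1, whose peak 74864 bp upstream had a local FA0 background of 1.91, an FA4 pileup of 11 and a fold of 4.12. The peaks of Ring1 and Rybp were isolated and small, unlike those of Jarid2 and Suz12.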
